A study of Saccharomyces cerevisiae BY4743 with 24 samples.

Results

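Amino acid biosynthesis mRNAs of the budding yeast Saccharomyces cerevisiae were followed through polysome gradients of cells at 30 °C and of cells heated to 42 °C. The set was a list of 46 enzyme genes from 10 pathways, with the sulfur amino acid genes left out. No value in the files entered the rule for the set, but it was chosen with earlier results of these data known. All 46 symbols were found among the 5959 mRNA entries of the deposited table, and 45 of the 46 passed a filter on low values that kept 3949 mRNAs. The one that did not pass was LEU9.

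Yeast makes every amino acid from central carbon intermediates and ammonium, and most of these enzymes are under general amino acid control. In that system, shortage of an amino acid activates the kinase Gcn2, translation of GCN4 mRNA rises, and the transcription factor Gcn4 raises transcription of enzyme genes in many pathways at once. Single pathways have further regulators, such as Leu3 for the branched-chain amino acids, Lys14 for lysine, the Arg80, Arg81 and Arg82 proteins for arginine and Aro80 for the breakdown of aromatic amino acids. Several first enzymes of a pathway are also inhibited by its end product.

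The strain was BY4743, a diploid, grown in complete synthetic medium with raffinose and a little glucose. Cells of the 30 °C groups were sampled at mid-log phase. For the 42 °C groups the culture was collected on a filter, moved into medium warmed to 42 °C and harvested 30 min later, so a difference between temperatures includes that handling. Cycloheximide stopped translation at harvest in both groups, lysates were spread on sucrose gradients, and fractions were joined into pools by their absorbance peaks. Library names call pools 1 to 3 mono, di and tri and give pool 4 no such name. The 2 temperatures, 4 pools and 3 replicate numbers make 24 libraries from 6 gradients, and the labels do not state whether replicates came from separate cultures. A p-value here therefore measures the spread between these samples, which may be technical.

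A level here is mRNA TPM, the TPM of a gene (transcripts per 1000000) rescaled so that all mRNAs of a library sum to 1000000. A level is thus a share of the library's mRNA, and fewer cells that carry an mRNA, less of it per cell and loss to fractions outside the 4 pools cannot be told apart. TPM keeps no read depth, so the depth is unknown. rRNA was not depleted, and mRNA took between 1423 and 4016 TPM in the 42 °C pool 1 libraries against 12751 to 37690 in all others. Of the 46 mRNAs, between 4 and 10 were listed at 0 in each 42 °C pool 1 library, between 2 and 9 in the other 42 °C libraries and at most 1 at 30 °C.

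The strain markers differed by replicate number. BY4743 is known to lack LEU2 and URA3 and to carry a partial deletion of HIS3, on both homologous chromosomes. URA3 was listed at 0 in 24 of 24 libraries. LEU2, which encodes the third enzyme of leucine synthesis, was listed at 0 in 8 of 8 libraries of replicate 3 and stood between 4.15 and 217.1 mRNA TPM in the 16 libraries of replicates 1 and 2. HIS3 stood at a mean of 110.8, 82.3 and 45.1 mRNA TPM in replicates 1, 2 and 3 at 30 °C and at 140.3, 94.2 and 16.8 at 42 °C. Since the libraries of a number share the presence or absence of LEU2 at both temperatures, the counts over the 4 pools are also given within and without each number. Of 9 genes expressed in haploid mating types, 7 stayed at or below 17.9 mRNA TPM in every library. The short pheromone mRNAs MFA1 and MFA2 were listed at 0 in 20 and 21 of 24 libraries and reached 787 and 1294 in the others.

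Most amino acid biosynthesis mRNAs fell in the heat. With the 4 pools of a gradient averaged, 35 of the 45 tested mRNAs were lower at 42 °C and 4 were higher, ARG3, LYS1, SER3 and BAT2 (limma, adjusted p under 5%). Of all 3949 mRNAs tested, 32.4% were lower and 31.2% higher by the same rule. The median change of the 45 was −1.91 on the log2 scale and that of all mRNAs −0.02. A fall of at least 1 on the log2 scale was met by 32 of the 45 (28.4% of all mRNAs), of at least 2 by 21 (17.2%) and of at least 3 by 10 (10.5%). The gradient means at 42 °C lay wholly below those at 30 °C for 34 of the 45 and wholly above for 4, where all mRNAs gave 35.6% and 34.9%. Of the 35 that fell, LYS20 and LEU1 had overlapping gradient means.

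On TPM as deposited the median of all mRNAs was at −1.04 and that of the 45 at −3.01. There 39 of the 45 were lower and 2 higher, ARG3 and SER3. The share of all mRNAs called on that scale is not given, so the shares of the main scale do not apply to these counts. ARG1, SER2, HOM6 and GLN1, which did not pass on the main scale, were lower past 5% there. They also passed when libraries were scaled to 25S rRNA, or to the spike-ins with a replicate block. On TPM as deposited they stood at −1.53, −1.55, −1.58 and −1.35, against −1.04 for the median of all mRNAs. Scaled to the spike-in RNAs, 9 were past 5% and all 9 were lower. The spike-ins summed to between 22.7 and 94.3 TPM in the libraries of replicate 1, to between 246 and 511 in those of replicate 2 and to between 332 and 442 in those of replicate 3. With the replicate number as a block the spike-in scale gave 40 lower and 1 higher, ARG3. The median of all mRNAs there was −1.11, and the share of all called is not given.

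**Figure D1:**
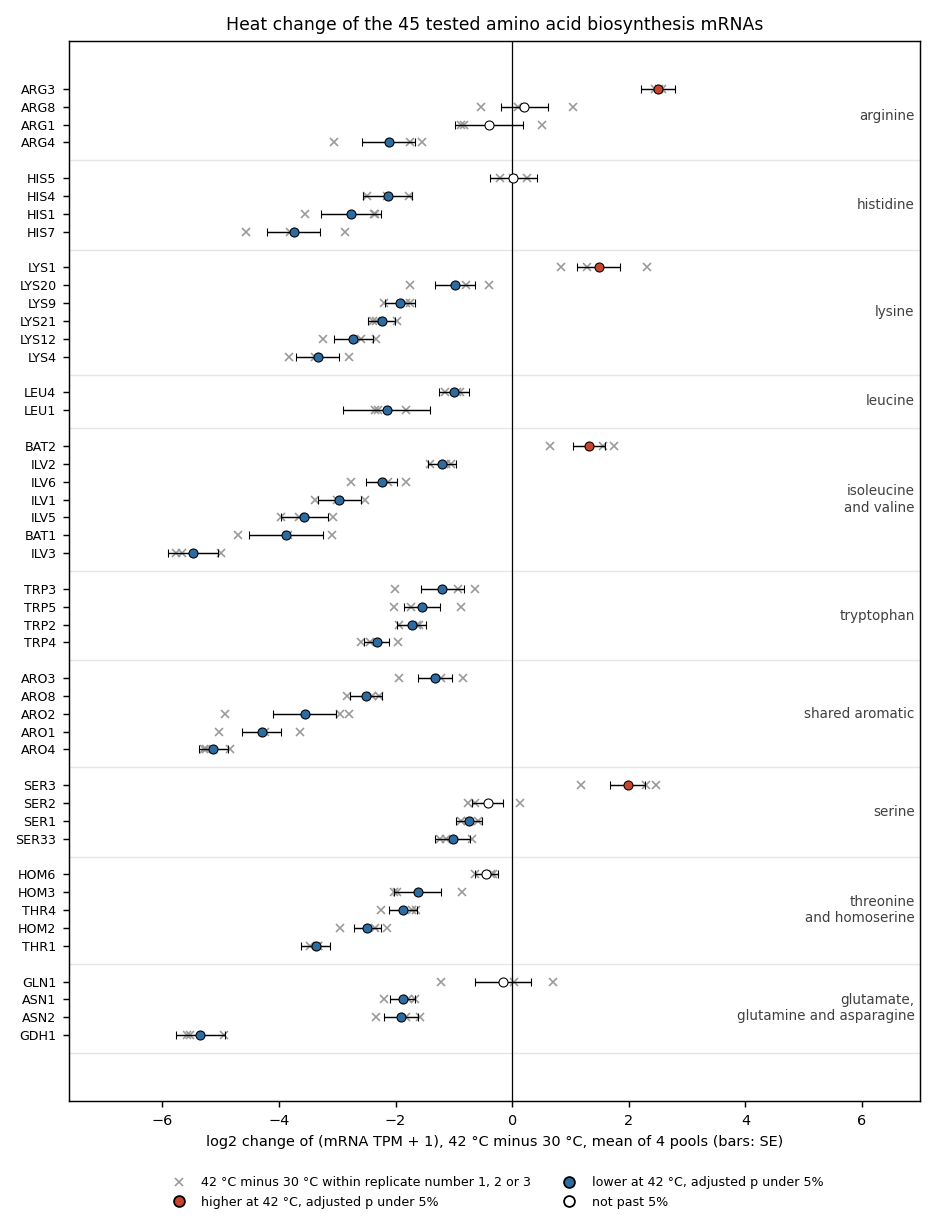
Change in log2 (mRNA TPM + 1) from 30 °C to 42 °C for the 45 tested mRNAs, grouped by pathway. Circles are means of 3 gradients with the standard error, blue for the 35 lower, red for the 4 higher and white for the 6 not past 5%, and crosses are the differences within each replicate number.

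The 46 mRNAs together took 0.444 ± 0.063% of the mRNA at 30 °C and 0.136 ± 0.044% at 42 °C (mean ± SD of 3 gradients), 3.26-fold less. The 138 cytoplasmic ribosomal protein mRNAs, which hold much of the mRNA at 30 °C, enter that denominator. Without them the share was 0.996 ± 0.157% at 30 °C and 0.140 ± 0.046% at 42 °C, 7.11-fold less. At 30 °C the largest shares by pathway were 0.113 ± 0.017% for isoleucine and valine and 0.105 ± 0.015% for glutamate, glutamine and asparagine. At 42 °C these were 0.0260 ± 0.0055% and 0.0522 ± 0.026%.

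In the branched-chain pathway 6 of 7 mRNAs fell and 1 rose, with a median change of −2.97. The pathway makes isoleucine and valine in mitochondria with shared enzymes, of which Ilv2 with its regulatory subunit Ilv6 is acetolactate synthase, Ilv5 the reductoisomerase and Ilv3 the dihydroxyacid dehydratase. ILV3 (YJR016C, chromosome X, 464451 to 466208, build R64) showed the largest fall of all 45. Its mean levels in the gradients of replicates 1, 2 and 3 were 140.4, 83.1 and 143.6 mRNA TPM at 30 °C and 2.12, 0.719 and 4.24 at 42 °C. At 42 °C 5 of the 12 libraries had ILV3 at 0, and its change was −5.48 ± 0.42 (log2, standard error, adjusted p = 4.85e-05 in limma). ILV3 reached at most 6.40 mRNA TPM at 42 °C, so it passed the filter on low values only through 30 °C libraries. Its p-value is not independent of that selection.

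ILV5 (YLR355C, chromosome XII, 838066 to 839253) was the most abundant of the 46 mRNAs at 30 °C, with 559, 409 and 660 mRNA TPM in the 3 gradients. At 42 °C it stood at 61.4, 21.8 and 45.2, and the change was −3.57 ± 0.40. Every 42 °C library of ILV5 lay below every 30 °C library, the highest being 76.7 against a lowest of 192.6. ILV1, the threonine deaminase that opens the isoleucine branch, changed by −2.97 ± 0.37, ILV6 by −2.24 ± 0.26 and ILV2 by −1.20 ± 0.24.

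The last step, transamination, is shared by a mitochondrial and a cytosolic enzyme, Bat1 and Bat2, and their mRNAs moved in opposite directions. BAT1 (YHR208W, chromosome VIII, 517532 to 518713) stood at 81.4, 17.8 and 63.6 mRNA TPM in the 30 °C gradients and at 4.15, 1.27 and 1.83 at 42 °C. The change was −3.88 ± 0.63 (adjusted p = 0.00134), and the groups did not overlap although the 30 °C gradients differed by 4.57-fold. BAT1 reached at most 5.45 at 42 °C, so it too passed the filter on low values only through 30 °C libraries. Its p-value is not independent of that selection. BAT2 (YJR148W, chromosome X, 705744 to 706874) stood at 53.5, 66.3 and 41.9 at 30 °C and at 148.8, 97.0 and 121.7 at 42 °C, a change of 1.31 ± 0.28 (adjusted p = 0.0047). TPM as deposited leaves in place the smaller mRNA share of the heated libraries in pools 1 to 3. On that scale BAT2 changed by 0.15 and did not pass, while BAT1 still fell.

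The 5 mRNAs of the shared aromatic list all fell, with a median change of −3.56. Aro3 and Aro4 are the alternative DAHP synthases that open the shikimate pathway, inhibited by phenylalanine and by tyrosine respectively. ARO4 (YBR249C, chromosome II, 716882 to 717994) stood at 62.3, 84.7 and 94.4 mRNA TPM at 30 °C and at 1.36, 1.48 and 1.71 at 42 °C, a change of −5.13 ± 0.25 (adjusted p = 9.71e-06). ARO3 stood at 56.0, 86.2 and 86.5 at 30 °C and at 27.9, 19.5 and 36.5 at 42 °C, a change of −1.33 ± 0.29 (adjusted p = 0.00585). The ARO4 values at 42 °C lay far below those of ARO3, where at 30 °C the 2 mRNAs had been at like levels in each gradient. With at most 4.07 mRNA TPM at 42 °C, ARO4 passed the filter on low values only through 30 °C libraries. Its p-value is not independent of that selection.

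ARO1 (YDR127W, chromosome IV, 704484 to 709250), with a coding length of 4767 nt the longest of the 45 tested mRNAs of the set, encodes the protein that carries out the middle steps of the shikimate pathway. It stood at 44.8, 76.0 and 83.3 mRNA TPM at 30 °C and at 2.49, 1.13 and 3.10 at 42 °C, a change of −4.30 ± 0.33. ARO2 (YGL148W, chromosome VII, 226399 to 227529), the chorismate synthase, was the most abundant of the list and went from 191.3, 216.8 and 247.3 to 25.3, 7.80 and 28.4, a change of −3.56 ± 0.54. ARO8, an aromatic aminotransferase, changed by −2.50 ± 0.27. For all 5 the gradients of the 2 temperatures did not overlap.

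Each of the 4 tryptophan branch mRNAs fell, by less than most of the shared aromatic mRNAs, with a median change of −1.64 that was not tested against theirs. TRP5, the tryptophan synthase and the most abundant of the 4, stood at 37.8, 48.3 and 62.3 mRNA TPM at 30 °C and at 17.9, 9.50 and 15.4 at 42 °C, a change of −1.55 ± 0.31. TRP4 changed by −2.33 ± 0.22, TRP2 by −1.73 ± 0.25 and TRP3 by −1.20 ± 0.36. The fall of TRP3 did not pass with a pseudocount of 0.1 or without the 30 °C gradient of replicate 2 or 3. Nor did it pass without replicate 1 or 2 at both temperatures. Trp2 and Trp3 form the anthranilate synthase that opens the branch.

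Of the 4 histidine mRNAs 3 fell, with a median change of −2.45. HIS1, which encodes the enzyme of the committing step, was the most abundant, at 364, 225.2 and 267 mRNA TPM at 30 °C and at 63.3, 16.1 and 44.1 at 42 °C. Its change was −2.76 ± 0.52 (adjusted p = 0.00264). HIS7 (YBR248C, chromosome II, 714807 to 716465), the gene next to ARO4 in the annotation, stood at 76.6 ± 20.3 at 30 °C and at 4.73 ± 2.84 at 42 °C (mean ± SD, n = 3), a change of −3.75 ± 0.45. HIS4, a multifunctional enzyme, changed by −2.14 ± 0.42. HIS5, the histidinol-phosphate aminotransferase, was at 0.02 ± 0.41 and did not pass (adjusted p = 0.971), with gradients that overlapped between temperatures.

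Lysine is made in yeast through the aminoadipate pathway, and 5 of its 6 listed mRNAs fell while LYS1 rose. The median change was −2.08. LYS9, the most abundant, stood at 67.4, 89.1 and 78.9 mRNA TPM at 30 °C and at 14.8, 22.9 and 14.8 at 42 °C, a change of −1.92 ± 0.25. LYS4, the homoaconitase, was above 0 in all 12 libraries at 30 °C, between 4.14 and 31.2 mRNA TPM, and listed at 0 in 11 of 12 at 42 °C, with 1.70 in the other, so its fitted change of −3.33 depends on the pseudocount. LYS12 changed by −2.73 ± 0.33. LYS20, also among those that fell, did not pass with a pseudocount of 0.1 or without replicate 1 or 2 at both temperatures. Nor did it pass without the 30 °C gradient of replicate 2 or 3 or the 42 °C gradient of replicate 1 or 2.

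LYS1 (YIR034C, chromosome IX, 419615 to 420736) encodes saccharopine dehydrogenase, the last enzyme of that pathway. Its gradient means were 10.3, 11.8 and 21.2 mRNA TPM at 30 °C and 39.9, 21.5 and 35.1 at 42 °C, a change of 1.48 ± 0.37 (adjusted p = 0.0102). The 42 °C means lay just above the 30 °C means, 21.5 against 21.2 at the closest. Without replicate 1 at both temperatures LYS1 did not pass 5%, and on TPM as deposited it stood at 0.42 and did not pass either.

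Of the 4 arginine mRNAs 1 fell, 1 rose and 2 did not pass, with a median change of −0.09. ARG3 (YJL088W, chromosome X, 268799 to 269815) encodes ornithine carbamoyltransferase, and it was low at 30 °C, listed at 0 in 6 of 12 libraries. Its gradient means were 0.425, 0.904 and 0.422 mRNA TPM at 30 °C and 7.74, 9.60 and 10.7 at 42 °C, where it was above 0 in every library. The change was 2.51 ± 0.29 (adjusted p = 0.000263), with 2.56, 2.44 and 2.52 within replicates 1, 2 and 3. ARG3 reached at most 1.81 mRNA TPM at 30 °C, so it passed the filter on low values only through 42 °C libraries. Its p-value is not independent of that selection.

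ARG4, the argininosuccinate lyase that ends the pathway, went the other way, from 115.7, 156.9 and 208.9 mRNA TPM at 30 °C to 38.1, 16.1 and 56.9 at 42 °C, a change of −2.11 ± 0.45. ARG1, the synthase of the step before it, was at −0.39 ± 0.58 (adjusted p = 0.575). Its gradients spread by 4.63-fold at 30 °C, from 28.7 in replicate 1 and 45.2 in replicate 2 to 132.9 in replicate 3, and stood at 42.9, 20.8 and 79.1 at 42 °C. ARG8, the acetylornithine aminotransferase, was at 0.21 ± 0.40 (adjusted p = 0.668).

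Outside the 46, ARG5,6 encodes the mitochondrial precursor of the enzymes before Arg8, and it rose by 1.75 ± 0.39, from 5.10 ± 4.19 to 14.9 ± 3.26 mRNA TPM. CPA1, which acts in the supply of carbamoyl phosphate to Arg3, stood at 5.61, 48.2 and 63.3 mRNA TPM in replicates 1, 2 and 3 at 30 °C and at 76.6, 50.6 and 129.4 at 42 °C. Its change of 1.58 ± 0.81 did not pass (adjusted p = 0.126), and replicate 1 at 30 °C had a lower level than the other 30 °C gradients.

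Serine mRNAs split as well, with 2 of 4 lower, 1 higher and 1 not past, and a median change of −0.58. Ser3 and Ser33 are alternative phosphoglycerate dehydrogenases, the enzymes that open the pathway. SER3 (YER081W, chromosome V, 322686 to 324095) stood at 3.68, 2.95 and 5.03 mRNA TPM at 30 °C and at 21.9, 17.2 and 12.4 at 42 °C, a change of 1.98 ± 0.30 (adjusted p = 0.000998). Its highest value at 30 °C was 9.72, so SER3 too passed the filter on low values only through 42 °C libraries. SER33 stood at 12.4, 11.2 and 14.2 at 30 °C and at 6.50, 3.30 and 5.41 at 42 °C, a change of −1.02 ± 0.29 (adjusted p = 0.0183). So SER33 was the higher of the 2 in each 30 °C gradient and SER3 in each 42 °C gradient. The fall of SER33 did not pass without the 30 °C gradient of replicate 1 or 3, or without replicate 3 at both temperatures. SER1, the phosphoserine aminotransferase, changed by −0.74 ± 0.23, and did not pass with quantile normalization, with median scaling and a replicate block, or without the 30 °C gradient of replicate 1 or 3, the 42 °C gradient of replicate 2, or replicate 1 or 3 at both temperatures. SER2, the phosphatase and the most abundant of the 4, was at −0.42 ± 0.27 and did not pass (adjusted p = 0.203), with levels of 47.9, 33.4 and 65.8 at 30 °C and of 33.9, 42.0 and 36.4 at 42 °C.

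**Figure D2:**
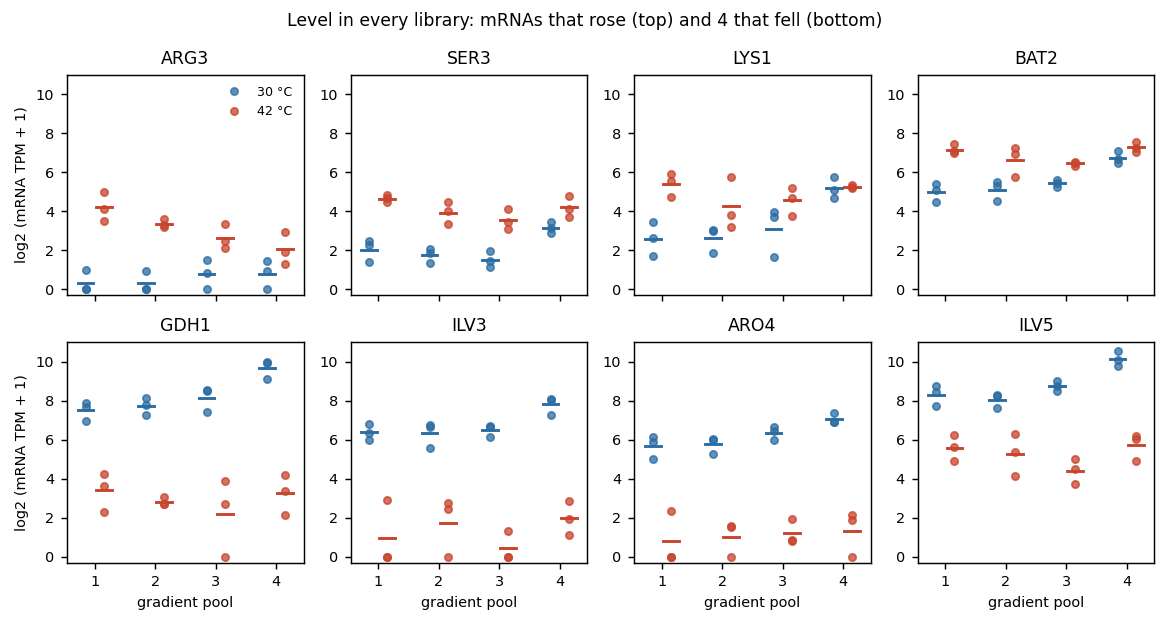
Level in each library, as log2 (mRNA TPM + 1), against gradient pool at 30 °C (blue) and 42 °C (red), with lines at the mean of 3. The upper row shows the 4 mRNAs that rose and the lower row GDH1, ILV3, ARO4 and ILV5, whose 42 °C points lie below all their 30 °C points in each pool.

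In the threonine and homoserine branch from aspartate 4 of 5 mRNAs fell, with a median change of −1.87. HOM2, the aspartate semialdehyde dehydrogenase and the most abundant, stood at 309, 347 and 452 mRNA TPM at 30 °C and at 59.5, 57.7 and 56.6 at 42 °C, a change of −2.48 ± 0.23. THR1, the homoserine kinase, changed by −3.37 ± 0.25, THR4 by −1.87 ± 0.24 and HOM3, the aspartate kinase, by −1.62 ± 0.40. HOM6, the homoserine dehydrogenase, was at −0.44 ± 0.20 and did not pass (adjusted p = 0.0899), with levels of 78.3, 79.6 and 69.5 at 30 °C and of 53.9, 46.2 and 49.6 at 42 °C.

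Leucine synthesis had 2 tested mRNAs, and both fell. LEU4, the main isopropylmalate synthase, stood at 42.3, 38.5 and 52.0 mRNA TPM at 30 °C and at 20.8, 15.9 and 21.5 at 42 °C, a change of −0.99 ± 0.25. LEU9, its paralog, was low at 30 °C, between 1.53 and 11.4 mRNA TPM, and at 42 °C all 12 libraries list it at 0. LEU1, the isopropylmalate isomerase, changed by −2.16 ± 0.75 (adjusted p = 0.0378), and its standard error was the largest of the 45. By its 42 °C libraries alone LEU1 would not have passed the filter on low values, so that p-value is not independent of the filter. LEU1 did not pass with a pseudocount of 0.1, without the 30 °C gradient of replicate 1 or 3 or the 42 °C gradient of replicate 2 or 3, or without replicate 1 or 3 at both temperatures. LEU4 did not pass without replicate 1 or 3 at both temperatures.

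Nitrogen enters amino acids through glutamate and glutamine, and here 3 of 4 mRNAs fell. GDH1 (YOR375C, chromosome XV, 1041678 to 1043042), the NADP-dependent glutamate dehydrogenase, stood at 458, 251.3 and 448 mRNA TPM at 30 °C and at 8.53, 5.09 and 11.6 at 42 °C, a change of −5.35 ± 0.42 (adjusted p = 5.04e-05). GLN1, the glutamine synthetase, stood at 392, 435 and 535 at 30 °C and at 606, 182 and 604 at 42 °C. Its change of −0.16 ± 0.48 did not pass (adjusted p = 0.782), and its differences within replicates 1, 2 and 3 were 0.71, −1.23 and 0.04. At 42 °C GLN1 had the highest mean level of the 46, 464.1 mRNA TPM, and BAT2 followed at 122.5. The asparagine synthetases ASN1 and ASN2 changed by −1.88 ± 0.21 and −1.91 ± 0.29.

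Isozyme pairs were compared as the log2 ratio of their levels, each plus 1, taken in each library and averaged over the pools of a gradient. The ratio of ARO3 over ARO4 was −0.13, −0.13 and −0.15 in the 30 °C gradients and 3.88, 3.19 and 3.91 at 42 °C, a shift of 3.80. For SER3 over SER33 the ratio went from −1.48, −1.38 and −1.37 to 1.67, 2.04 and 1.06, with means of −1.41 and 1.59. For BAT1 over BAT2 it went from 0.56, −1.88 and 0.58 to −4.85, −5.62 and −5.86, a shift of −5.19. LYS20 over LYS21, the homocitrate synthases, shifted by 1.26, from −0.03, 0.36 and −0.07 to 1.16, 1.01 and 1.87. ASN1 over ASN2 was at −1.31 ± 0.27 and −1.28 ± 0.29 (mean ± SD, n = 3), a shift of 0.03.

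The gradients of the 2 temperatures did not overlap in any of these ratios but ASN1 over ASN2. A 2-sided exact permutation test gave p = 0.1 for each of those 4 shifts, the smallest that 3 against 3 gradients can give, and p = 0.9 for ASN1 over ASN2. Adjusted over 6 pairs these are 0.12 and 0.9, so none of the ratios passed 5%. With gradients paired by number, exact sign flips gave p = 0.25 for the 4 shifts, the smallest for 3 pairs. The added 1 pulls the ratios of low mRNAs toward equal levels. BAT1 and ARO4 were each listed at 0 in 4 of the 42 °C libraries and LYS21 in 1, so the size of those shifts depends on it. No ratio is given for LEU4 over LEU9, since LEU9 was listed at 0 in every 42 °C library. Reads of similar isozyme mRNAs are divided between them by the quantification, which can blur a ratio.

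**Figure D3:**
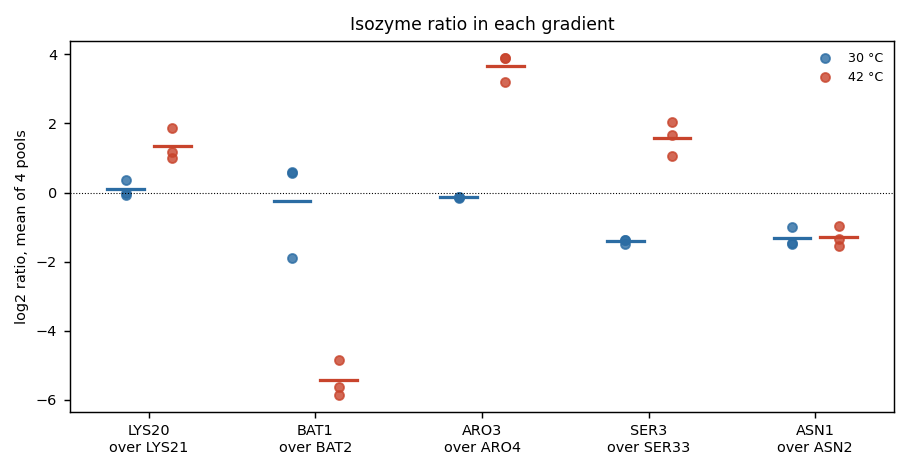
Log2 ratio of the levels plus 1 of 5 isozyme pairs, as the mean of 4 pools, in each gradient at 30 °C (blue) and 42 °C (red), with lines at the mean of 3. The ratio of ARO3 over ARO4 lies between −0.15 and −0.13 at 30 °C and between 3.19 and 3.91 at 42 °C, and that of ASN1 over ASN2 overlaps.

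Each pool showed more falls than rises among the 45 mRNAs. In pool 1, 19 were lower and 4 higher, where 17.1% and 39.7% of all mRNAs were. With the replicate number as a block 7 were higher in pool 1 (share of all mRNAs not given), ARG1, HIS5 and GLN1 being the added ones. In pool 2, 28 were lower and 4 higher (18.8% and 33.2% of all), in pool 3, 30 and 3 (28.1% and 20.9%), and in pool 4, 38 and 1 (43.8% and 13.8%). The median change of the 45 went from −0.90 in pool 1 through −1.70 and −2.22 to −2.80 in pool 4. The median of all mRNAs moved alongside, at 0.65, 0.42, −0.24 and −0.94, so that the 45 lay 1.55, 2.13, 1.98 and 1.86 below it in pools 1 to 4.

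With the median mRNA of each library set equal (median scaling) the same 35 and 4 were called over the 4 pools, where 32.9% and 34.0% of all mRNAs were, and the step between pools was no longer seen. The medians of the 45 were then −1.60, −2.12, −1.91 and −1.74, and 31, 32, 29 and 28 were lower in pools 1 to 4, where 27.0%, 25.9%, 24.4% and 24.7% of all mRNAs were. Higher were 4, 3, 4 and 3 (26.6%, 25.8%, 27.0% and 29.6% of all).

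**Figure D4:**
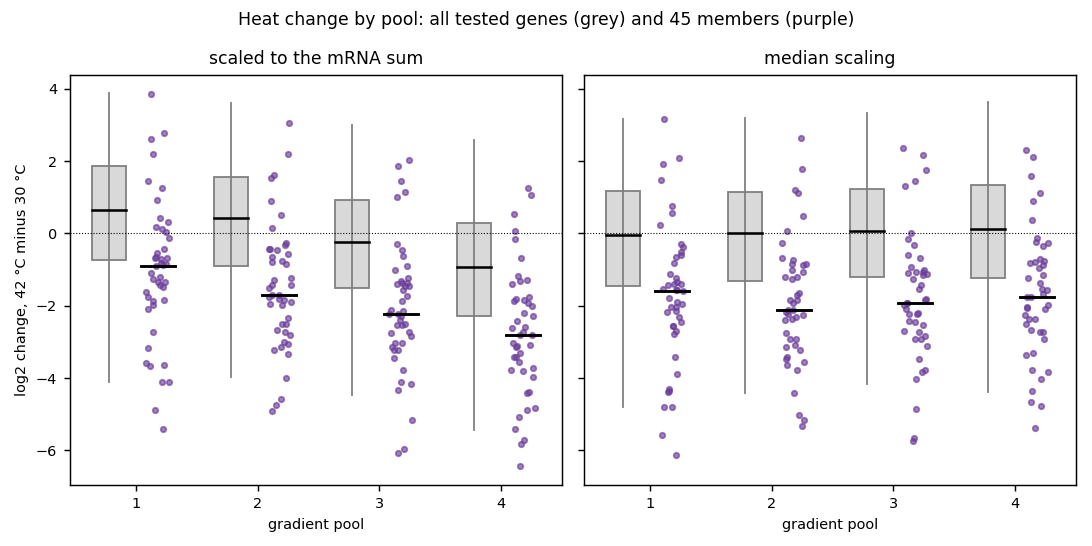
Change in log2 (mRNA TPM + 1) from 30 °C to 42 °C in each pool, scaled to the mRNA sum (left) and with median scaling (right). Grey boxes give the median and quartiles of 3949 mRNAs with whiskers from the 5th to the 95th percentile, points are the 45 mRNAs and black lines their medians, which run from −0.90 to −2.80 on the left and from −2.12 to −1.60 on the right.

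A fall in all 4 pools was found for 19 mRNAs (13.9% of all), among them ARG4, HIS1, HIS7, ILV1, ILV2, ILV3, ILV5, ILV6, BAT1, 4 of the 5 shared aromatic mRNAs, HOM2, GDH1 and ASN1. SER3 was the one mRNA that rose in all 4 (12.6% of all). With median scaling 27 fell in all 4 pools (17.7%), and ARG3, BAT2 and SER3 rose (19.4%). No mRNA of the set was called lower in a pool and higher in another by limma, on either scale. Of all mRNAs, 4.18% were so called on the main scale and 0.228% with median scaling.

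ILV3, GDH1 and ARO4 had the 3 largest falls in pools 2, 3 and 4, and ILV3, ARO4 and BAT1 in pool 1. In pools 1 to 4 GDH1 changed by −4.10, −4.91, −5.96 and −6.43, ILV3 by −5.42, −4.59, −6.06 and −5.83, and ARO4 by −4.89, −4.75, −5.16 and −5.71. ARG3 changed by 3.87, 3.05 and 1.87 in pools 1 to 3 and was at 1.24 in pool 4, each with a standard error of 0.55, and did not pass in pool 4 (adjusted p = 0.06). SER3 changed by 2.62, 2.19, 2.04 and 1.06 and passed in each pool. In pool 1 it was at −0.22 on TPM as deposited, the opposite sign, and LYS1 at −0.19. In pool 4 SER3 did not pass with that pool fitted alone or on the spike-in scale with no block, nor without the 30 °C gradient of replicate 1 or 2, the 42 °C gradient of replicate 1 or 2, or replicate 1 or 2 at both temperatures. LYS1 changed by 2.78 and 1.62 in pools 1 and 2, and by 1.45 and 0.07 in pools 3 and 4 without passing. BAT2 changed by 2.19, 1.53 and 1.01 in pools 1 to 3 and was at 0.53 in pool 4.

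The level of each mRNA along the gradient was compared as pool 4 minus pool 1. At 30 °C 32 of the 45 were higher in pool 4 and 0 lower, where 47.1% of all mRNAs were higher and 1.34% lower. By unadjusted p under 5% in limma the counts were 38 and 0. Pools 1 and 4 come from the same gradients, and with the gradient as a block 39 were higher (share of all mRNAs not given). LYS1 at 2.58, ASN2 at 2.42 and LYS20 at 2.23 had the largest differences. ASN2, for example, stood at 65.5 ± 24.3 mRNA TPM in pool 1, then at 92.4 ± 8.81 and 118.3 ± 23.1, and at 341 ± 65.3 in pool 4 (mean ± SD, n = 3). The median of all mRNAs also moved, by 1.18, and that of the 45 by 1.72. The count of 32 was 20, 17 and 17 without the 30 °C gradient of replicate 1, 2 or 3, and 18 without replicate 3 at both temperatures. With median scaling 0 of the 45 passed (4.53% of all mRNAs were higher and 3.57% lower), with 9 higher at an unadjusted p under 5%.

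At 42 °C few of the 45 differed between these pools on the main scale, but on TPM as deposited 39 were higher in pool 4. Scaling to 25S rRNA gave 25 higher, and scaling to the spike-ins gave 37 with a block and 0 without. On the main scale ARG3 was lower in pool 4 by 2.15 ± 0.55 on the log2 scale (adjusted p = 0.015), as were 11.4% of all mRNAs, and 0 were higher (1.70% of all). By unadjusted p, 3 were lower and 2 higher. With the gradient as a block ARG3, HIS5 and GLN1 were lower and TRP2 higher. ARG3 stood at 10.3, 16.1 and 30.2 mRNA TPM in pool 1 and at 2.71, 6.61 and 1.43 in pool 4. With median scaling ARG3 was at −1.53 and did not pass (adjusted p = 0.059), and instead ILV2, TRP2, SER33, HOM2 and HOM6 were higher in pool 4 (11.5% of all mRNAs, with 5.04% lower). On TPM as deposited ARG3 was at 0.46, the opposite sign.

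The difference between temperatures in pool 4 minus pool 1 was tested as an interaction. It was below 0 past 5% for 24 of the 45 (48.2% of all mRNAs) and above 0 for 0 (0.304%; at an unadjusted p under 5% the counts were 30 and 0). The median of all mRNAs was −1.56 and that of the 45 −1.69. With median scaling 0 of the 45 passed in either direction, where 0.152% of all mRNAs were lower and 0.304% higher, and 0 were lower and 1 higher at an unadjusted p under 5%. On the main scale with the gradient as a block, 31 were below 0 past 5% (share of all mRNAs not given). The count of 24 was 15, 10 and 14 without the 30 °C gradient of replicate 1, 2 or 3, and 15, 10 and 6 without replicate 1, 2 or 3 at both temperatures. The counts for pool differences thus rest on the scale and on single gradients. THR1 had the largest interaction, at −3.64 ± 0.99, with pool 1 and pool 4 means of 48.4 and 168.5 mRNA TPM at 30 °C and of 19.9 and 5.30 at 42 °C.

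Results were then set against the replicate number, because of LEU2. Within replicates 1, 2 and 3, 37, 38 and 40 of the 45 tested mRNAs were lower at 42 °C. These are counts of sign alone, and the share of all mRNAs that were lower is not given. The 35 that fell and the 4 that rose kept their direction in each of the 3 pairs. They had been called on the same gradient means, so this is no independent check. The median change of the 45 was −1.82, −2.02 and −1.74 in the 3 pairs, where all mRNAs gave 0.08, −0.28 and 0.14. With the number as a block over the 4 pools the same 39 mRNAs passed, 35 lower and 4 higher. Without replicate 1, 2 or 3 at both temperatures 30, 32 and 31 were lower and 3, 4 and 4 higher.

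**Figure D5:**
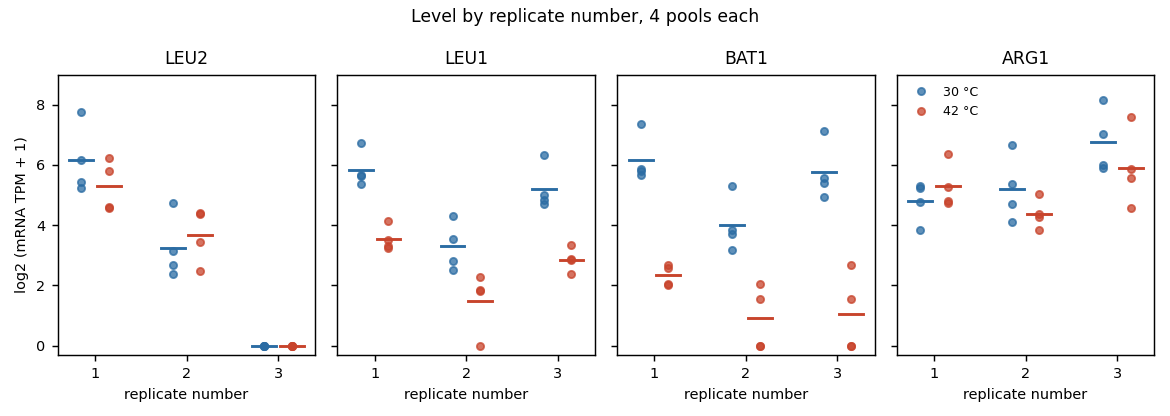
Level of LEU2, LEU1, BAT1 and ARG1 in each library, as log2 (mRNA TPM + 1), by replicate number at 30 °C (blue) and 42 °C (red), with lines at the mean of 4 pools. LEU2 is at 0 in all 8 libraries of replicate 3, and LEU1 and BAT1 at 30 °C are lowest in replicate 2.

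LEU1, BAT1 and ARG1 had the widest spread between gradients at 30 °C, with a highest over lowest mean of 6.05, 4.57 and 4.63, where the others reached at most 2.82. LEU1 stood at 60.7, 10.04 and 40.6 mRNA TPM in replicates 1, 2 and 3 at 30 °C and at 11.05, 2.23 and 6.44 at 42 °C, in the same order. Its changes within the numbers were −2.30, −1.81 and −2.35, and with the number as a block the standard error of LEU1 went from 0.75 to 0.26. Across the 45 the median SD between gradients of a temperature was 0.33 on the log2 scale at 30 °C and 0.43 at 42 °C, where all mRNAs gave 0.23 and 0.38.

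Among other enzymes of these pathways, 23 of 27 listed genes were tested, and 12 fell, 2 rose and 9 did not pass, where 32.4% of all mRNAs fell and 31.2% rose. PRO1, which opens proline synthesis, changed by −3.66 ± 0.32 and GLT1, the glutamate synthase, by −2.80 ± 0.21. The 2 that rose were ARG5,6 and ARO9, an aromatic aminotransferase of amino acid breakdown, at 1.38 ± 0.39. HIS3 and LEU2 were at −0.45 ± 0.93 and −0.14 ± 1.77, and did not pass.

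Of 15 listed regulators 6 were abundant enough to test. GCN4 mRNA stood at 58.4, 66.6 and 59.3 mRNA TPM at 30 °C and at 10.6, 12.4 and 20.2 at 42 °C, a change of −2.36 ± 0.22, and GCN1, which helps to activate Gcn2, changed by −1.48 ± 0.24. RTG1, a regulator of glutamate supply, rose by 2.30 ± 0.32 and ARG82 by 1.02 ± 0.28, and the remaining 2 did not pass. Of the 13 amino acid permeases listed 12 were tested, and 8 fell and 4 did not pass, where 32.4% of all mRNAs fell. TAT1 showed the largest of these falls, −3.05 ± 0.36.

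Across the 45 mRNAs the change over the pools and the level at 30 °C had a Spearman correlation of −0.47, and across all 3949 mRNAs one of −0.43. This describes these libraries only, since the 30 °C level enters both quantities and genes are not independent replicates. The 45 had a median level at 30 °C of 53.9 mRNA TPM and all tested mRNAs one of 20.4, so they lay toward the abundant end. Their median coding length was 1323 nt against 1044 nt for all. Coding length and the difference of pool 4 minus pool 1 at 30 °C had a Spearman correlation of −0.01 across the 45 and of 0.25 across all.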

How the data were processed

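RNA of 24 polysome gradient pools of yeast BY4743 was measured (2 temperatures, 4 pools, 3 replicate numbers, each group read from the library's title). The authors deposited 1 table of TPM for 6087 entries, made with Trim Galore 0.6.5 and Salmon 1.9.0 against build R64, per the submitters' processing notes, which name no settings. No value column was left without a sample. TPM keeps no depth, so no count test and no interval from depth was used.

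From the deposited TPM, values were rescaled to 1000000 over the 5959 mRNA entries, mRNAs with at least 10 in at least 3 libraries were kept (3949), and log2 of the value plus 1 was fitted in limma 3.58.1 (R 4.3.3) with a mean-variance trend and Benjamini-Hochberg adjustment over all 3949 at 5%, 2-sided. Fold changes are on that scale, which understates changes of low mRNAs. The filter counts libraries of both temperatures, so an mRNA high at 1 temperature can enter through it alone. ARG3 and SER3 entered only through 42 °C libraries. ILV3, BAT1, ARO4 and LYS4, among others, entered only through 30 °C libraries, with 42 °C maxima of 6.40, 5.45, 4.07 and 1.70. A p-value of such an mRNA is not independent of that selection. Heat over the 4 pools was fitted on 6 gradient means, and pool comparisons in 1 fit of 24 libraries with 8 group means. Isozyme ratios were tested by exact permutation and exact sign flips with scipy 1.17.1 (Python 3.11.15, numpy 2.4.6, pandas 2.3.3), and figures drawn with matplotlib 3.10.9. The fit was tested on simulated data.

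The members, pathways, gene lists and tests were chosen with earlier results of these data known. Named are all members that rose or did not pass, the 8 largest falls without overlap, the most abundant member of each pathway, isozymes and the 3 largest changes per comparison. Some further members were named after their values were seen, to complete a pathway. Symbols and coordinates came from the RefSeq gene table of R64, in which ARG5,6 is written ARG56. Promoter motifs and protein identities had been planned and were not analysed here, and 1 listed gene outside the 46 is not reported here.

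Replicate numbers were checked by correlating deviations from group means. Same-numbered gradient means correlated at 0.14 to 0.19 and differently numbered ones at −0.15 to −0.01. Within pools these correlations were 0.04 to 0.10 and at most 0.02. Deviations from a group mean cancel over its replicates, so positive values for same numbers bring negative ones for different numbers. The latter are no separate evidence of pairing. The number was used to pair gradients in the replicate block for heat, the sign flips and the differences within each number. The main fits and the permutation test were unpaired. Alternatives were other pseudocounts, filters, scales, blocks and leaving out gradients. The replicate block is the replicate number for heat and the gradient for pool differences.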

Additional observations from a re-analysis of the deposited data

Results flagged for a closer look

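The change of pool 4 minus pool 1 between 30 °C and 42 °C was below 0 past 5% for 24 of the 45 mRNAs in the limma interaction, which flagged it as a difference between temperatures. With median scaling 0 passed, and 48.2% of all mRNAs met the same rule on the main scale. THR1, at −3.64, GLN1, at −3.02, and ARG1, at −2.76, were the 3 largest. GLN1 stood at 303 ± 29.6 mRNA TPM in pool 1 and 883 ± 169.9 in pool 4 at 30 °C, and at 838 ± 509.5 and 304 ± 180.9 at 42 °C (mean ± SD, n = 3). ARG1 went from 29.4 ± 25.6 in pool 1 and 139.8 ± 126.2 in pool 4 to 96.4 ± 87.0 and 42.2 ± 13.2. With median scaling the interactions of THR1, GLN1 and ARG1 were −1.88, −1.26 and −1.01 and did not pass. On TPM as deposited those of GLN1 and ARG1 had the opposite sign.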

How the results depend on the processing

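Over the 4 pools, the count of lower mRNAs was 35 and lay between 25 and 40 under each alternative except the spike-in scale. The 39 calls were the same 39 with the replicate block and with median scaling. Leaving out 1 gradient, or 1 replicate number at both temperatures, gave 30 to 34 lower and 3 to 4 higher. The calls lost then were among LYS1, LYS20, LEU1, LEU4, TRP3, SER1, SER33 and HOM3. A pseudocount of 0.1 lost LYS20, LEU1 and TRP3, and quantile normalization lost SER1, as did median scaling with a replicate block. The cause was not tested where none is given.

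Counts that moved are given as lower and higher. On the spike-in, deposited and 25S rRNA scales the median of all mRNAs differed from the main scale as well. The share of all mRNAs called is given only for the main scale and median scaling, each without a block. The spike-in scale gave 9 lower over the pools, 9, 8, 12 and 8 lower in pools 1 to 4, 0 higher in any of these, and 0 calls for each pool difference. With a replicate block, added after seeing the data, it gave 40 and 1 over the pools, 40, 37 and 40 lower in pools 1 to 3 with 0, 2 and 1 higher, 0 and 37 for pool 4 minus pool 1 at 42 °C, and 0 and 1 for its change with heat. TPM as deposited gave 39 and 2 over the pools, 40 and 36 lower in pools 1 and 2 with 0 and 2 higher, 0 and 39 for the difference at 42 °C, and 0 and 6 for its change. On the 25S rRNA scale 39 were lower and 2 higher over the pools, 37 lower in pools 1 and 2 with 1 and 2 higher, 25 higher at 42 °C, and 0 changed with heat in the pool difference. The filter at 50 mRNA TPM, which tests fewer mRNAs, left 2 higher over the pools, 2, 2, 1 and 0 higher in pools 1 to 4, and 0 lower at 42 °C.

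Median scaling gave 31 lower in pool 1, 3 higher in pool 4, 0 for the difference at 30 °C, 0 and 5 at 42 °C and 0 for its change. Quantile normalization gave 31, 3, 0, 0 and 2, and 0. Median scaling with a replicate block, also added after seeing the data, gave 33, 3, 3, 2 and 10, and 1. The replicate block alone (the gradient, for pool differences) gave 7 higher in pool 1 and 3 lower and 1 higher at 42 °C. In pool 4 the 1 higher mRNA was 2 with no trend and 0 with each pool fitted alone. At 42 °C the 1 lower mRNA was 0 with a pseudocount of 0.1 and 2 with one of 5. Without a gradient or a replicate number, the ranges were 14 to 20, 21 to 27, 27 to 33 and 32 to 38 lower in pools 1 to 4, 4 to 6, 3 to 4, 1 to 3 and 0 to 2 higher there, 17 to 36 higher at 30 °C, 0 to 2 lower and 0 to 1 higher at 42 °C, and 6 to 27 lower for the change. Without replicate 3 at both temperatures 18 were higher at 30 °C, and without replicate 1, 2 or 3 at both temperatures 15, 10 and 6 were lower for the change. The isozyme shifts kept their direction in these runs except ASN1 over ASN2, which ran from −0.13 to 0.19.

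Signs turned in these cases. HIS5 over the pools was at −1.14 on the spike-in scale with a replicate block. On TPM as deposited LYS1 and SER3 in pool 1 were at −0.19 and −0.22, ARG3 in the difference at 42 °C was at 0.46, and GLN1 and ARG1 in its change with heat were at 0.36 and 0.40. On the spike-in scale, with and without the block, BAT2 in pool 3 was at −0.068 and ARG3 at 42 °C was at 0.053. Low mRNA content limits the 42 °C pool 1 libraries, where up to 10 of the 46 were listed at 0.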

Other observations

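CPA1 stood apart in the 30 °C gradient of replicate 1. In its 4 libraries it lay between 2.34 and 8.87 mRNA TPM, and in the other 8 libraries at 30 °C the lowest value was 25.2. These values were picked after they were seen and were not tested.

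GCN4 mRNA at 30 °C had its highest level in pool 1, with 96.6, 102.9 and 106.1 mRNA TPM in replicates 1, 2 and 3, and lower levels in pool 4, with 34.8, 78.7 and 55.9. At 42 °C the pool 1 values were 7.17, 33.7 and 57.7 and the pool 4 values 4.83, 2.98 and 6.67. The difference between pools was not tested for GCN4.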
